A study of Mus musculus with 26 samples.

Results

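The deposited spleen libraries from mice given ovalbumin (OVA, the main protein of egg white and a common experimental allergen) carry the codes OS (6 libraries) and ON (5 libraries). The comparison of these 11 libraries, of 26 in the whole series, is described here, and they were taken by their column codes. All came from female BALB/c mice 8 weeks old that received 0.05 mg of OVA per day into the peritoneum on days 1, 3 and 5. The labels give both codes the same strain, sex, age, tissue, agent and dose, and do not define the codes. The other libraries came from mice of the same strain, sex and age. Saline was given to the 5 coded CT, and OVA with a tail-vein dose of a miR-676-3p mimic (7 mg per kg, day 3) to 5 coded MM and 5 coded MN. The labels count 20 mice per group and do not say whether a library is 1 mouse or a pool, so p-values measure the spread between these libraries, which may be technical.

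Levels are FPKM, fragments scaled by the authors to gene length and to a library size that is not the plain read total. This size was 0.712 times the reads recovered from the FPKM in ON 2. In the other OS and ON libraries it was 0.961 to 1.12 times. Of 56392 genes, 15672 reached an FPKM of 1 in 5 or more libraries and were tested, 11969 of them protein-coding. A difference is the OS mean minus the ON mean of log2(FPKM + 1), given with its standard error, and it understates the change of genes near 1 FPKM. The moderated test of limma was fitted to all 26 libraries with 1 mean per code, and a gene is called at an adjusted p under 0.05 (Benjamini-Hochberg over all tested genes).

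Early-response genes are switched on within minutes of a signal without new protein synthesis. Growth factors, antigen receptors, cytokines and physical or oxidative stress act on them through kinases and through factors already present in the cell. They encode transcription factors of the AP-1, Egr and Nr4a families, phosphatases and other inhibitors that end the signal, and secreted proteins. In spleen, lymphocytes show such a burst after antigen contact.

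Genes of this early response were 11 of the 27 genes called higher in OS. OS was higher for 27 genes (0.172% of those tested) and lower for 2 (0.0128%), so 29 were called in all (0.185%). Of the higher genes 22 are protein-coding and 14 differed at least 2-fold on the log2 scale used. The 4 lists of early-response genes (AP-1 factors, other early transcription regulators, MAP kinase feedback, and secreted or matricellular products) hold 62 tested members, of which 11 were higher in OS and none lower. Their median difference was 0.90, and 57 lay above 0, against a median of 0.01 and 8180 of 15672 above 0 over all genes. The lists were drawn up with earlier results of these data known, so this contrast is not an independent test. Unadjusted p-values were under 0.05 for 1658 genes (10.6%), and limma voom on the reads behind the FPKM called 35 higher and 5 lower (0.0319%), sharing 23 of the 29.

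Few of the called genes separated the codes fully, and OS 5 and ON 2 often lay nearest to the other code. All 6 OS libraries were above all 5 ON libraries for 69 genes (0.440%) and below them for 50 (0.319%). Of the 27 higher genes 10 were apart in this way. OS 5 had the lowest OS value for 21 of these 27 genes and for 4752 of all 15672 (30.3%), and ON 2 had the highest ON value for 21 of them and for 4207 of all (26.8%). Without OS 5, the other 5 OS libraries were above every ON library for 23 of the 27, and for 245 of all genes (1.56%). Saline values enter the estimate of spread but not the difference itself. The 27 genes were chosen for OS above ON, so their position against saline is no separate test. The OS median lay above the highest saline library for 26 of the 27 genes (1886 of all genes), and the ON median lay within the saline range for 21 (12263 of all genes).

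**Figure D1:**
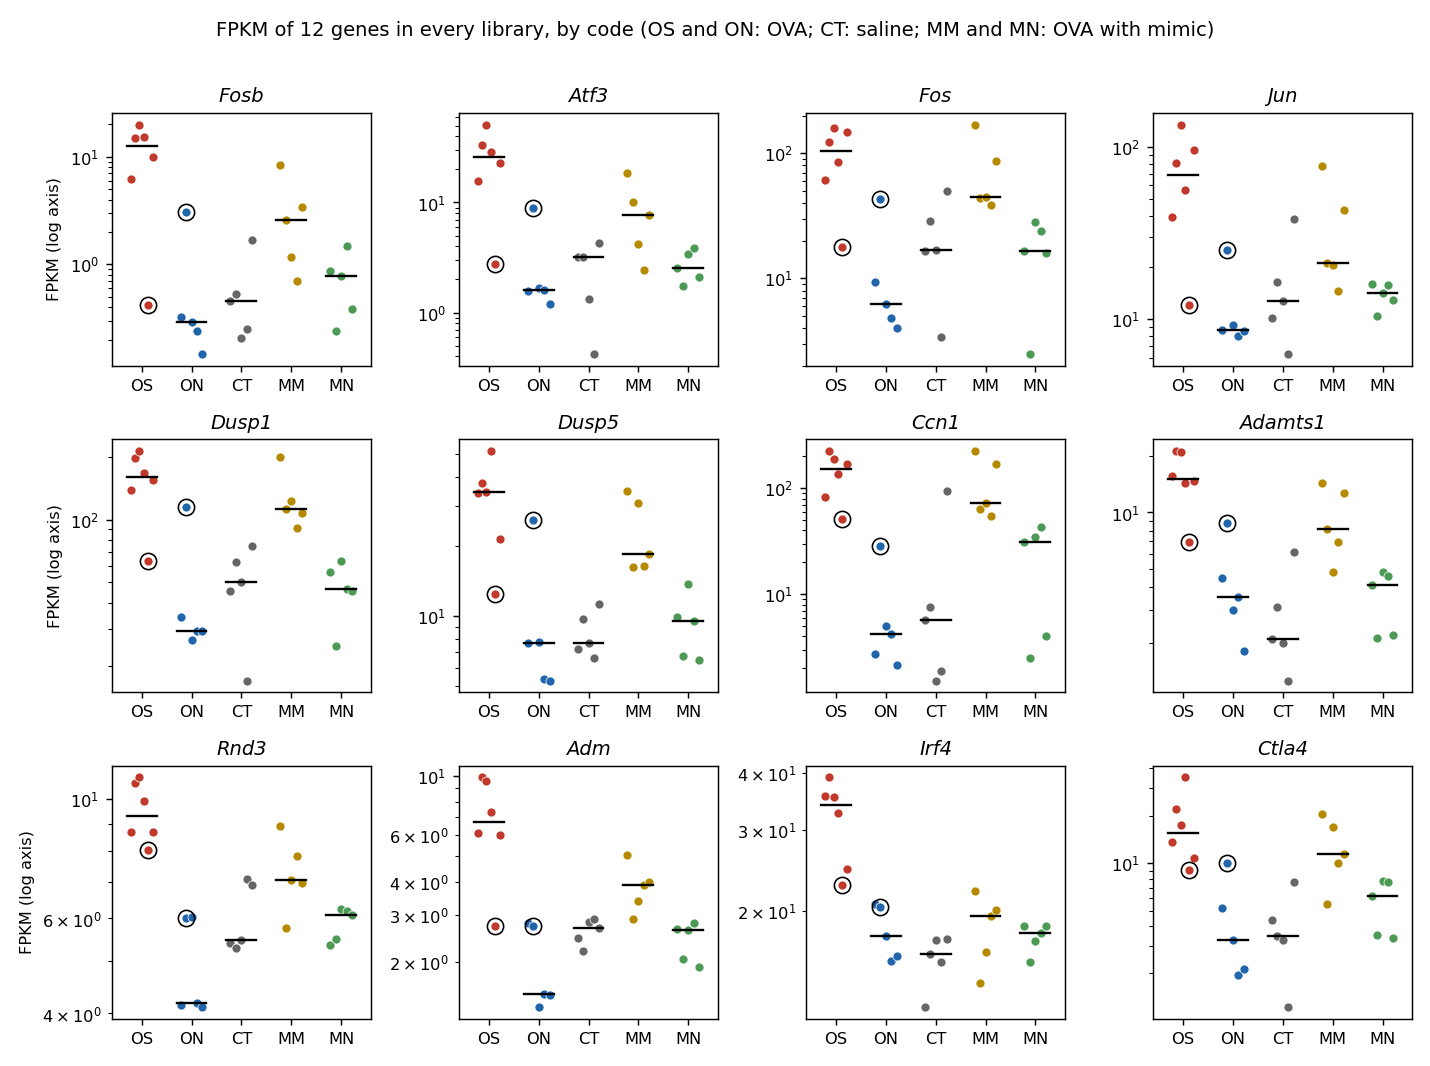
FPKM (log axis) of 12 genes in each of the 26 libraries, by code; each point is a library, the bar is the median of the code, and circles mark OS 5 and ON 2. OS 5 is the lowest OS library for all 12 genes, and ON 2 is the highest ON library for 9 of them.

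AP-1 factors are the Fos, Jun, Atf and Maf proteins that bind DNA as pairs. Of 14 on the list 13 were tested, since Fosl1 did not reach the minimum. Atf3 and Fosb were higher in OS, 11 were not called, and the median of the 13 differences was 1.23, from -0.40 to 3.04. It was 1.85 without OS 5.

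Fosb, a Fos protein that also pairs with Jun, ran from 0.424 to 19.8 FPKM in OS with a median of 12.5. In ON 1 to ON 5 it had 0.323, 3.08, 0.291, 0.242 and 0.146. The other OS libraries lay above every ON library, while OS 5 was within their range. The difference was 2.54 ± 0.52 (limma adjusted p = 0.0393). Atf3, a stress-induced repressor of the same family, ran from 2.76 to 51.1 FPKM in OS (median 25.9) and had 1.56, 8.84, 1.66, 1.59 and 1.19 in ON. Only ON 2 exceeded OS 5 among the ON libraries, and the difference was 2.66 ± 0.53 (adjusted p = 0.0393).

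Fos and Jun, the founding pair of AP-1, were not called with all libraries. Fos ran from 17.7 to 160.2 FPKM in OS (median 104) and had 9.42, 43.3, 6.28, 4.80 and 4.04 in ON (3.04 ± 0.67, limma adjusted p = 0.0527). Jun ran from 12.05 to 135 FPKM in OS (median 68.5) and had 8.67, 25.2, 9.32, 8.01 and 8.57 in ON (2.26 ± 0.49, adjusted p = 0.0527). For both, 5 OS libraries were above every ON library and OS 5 was not. Junb, which can restrain Jun, and Jund, a family member often present without a stimulus, were not called either. Junb had 19.1 FPKM in OS 5 and 119 to 305 in the other OS libraries, against 26.6 to 65.0 in ON (adjusted p = 0.211). Jund had 5.93 FPKM in OS 5, 60.7 to 141 in the other OS libraries and 17.4 to 31.6 in ON (adjusted p = 0.495). OS 5 was below the lowest ON library for both. Fosl2, a Fos relative, had 4.81 to 22.9 FPKM in OS and 3.803 to 20.2 in ON, and all but 1 OS library lay within the ON range (limma adjusted p = 0.422). Batf2, an interferon-linked member, was the lowest of the list at -0.40 ± 0.15, with 0.393 to 1.05 FPKM in OS and 0.891 to 1.44 in ON (adjusted p = 0.331).

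Dual-specificity phosphatases remove phosphate from MAP kinases, and Sprouty proteins and Errfi1 dampen growth factor receptors. Of 16 members 15 were tested, Dusp14 being too low, and Dusp1 and Dusp5 were higher in OS while 13 were not called. The median of the 15 differences was 0.71, and 13 lay above 0. Among the members of the 4 lists that were called and are named here, 8 of 10 are in the RefSeq promoter table (GRCm38.p6), which lacks Ccn2 and Gem. Those 8 windows of 250 bases before the start were searched on both strands for 4 motifs through which such genes are known to be induced: the cAMP element TGACGTCA, the AP-1 site TGANTCA, the CArG box of serum response factor, and the NF-kappaB site. In 3 of them a match was found, and only these 3 windows are shown. They belong to called AP-1 and MAP kinase feedback genes. Each is written 5′ to 3′ on the strand of the gene, ending at the last base before the start, with the match in capitals.

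Dusp1 (chr17:26508473-26508722, - strand, cAMP element): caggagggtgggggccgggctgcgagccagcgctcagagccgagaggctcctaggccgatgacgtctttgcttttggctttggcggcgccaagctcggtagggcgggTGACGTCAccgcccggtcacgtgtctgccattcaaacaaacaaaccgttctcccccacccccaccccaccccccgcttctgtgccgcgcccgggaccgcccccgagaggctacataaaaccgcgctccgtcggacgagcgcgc
Dusp5 (chr19:53528895-53529144, + strand, 2 adjoining CArG boxes): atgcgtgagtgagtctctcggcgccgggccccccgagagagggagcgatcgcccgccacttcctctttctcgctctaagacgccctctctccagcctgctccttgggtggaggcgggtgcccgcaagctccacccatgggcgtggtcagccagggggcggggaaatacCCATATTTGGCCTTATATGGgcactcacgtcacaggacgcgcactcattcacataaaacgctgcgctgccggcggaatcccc
Fosb (chr7:19310046-19310295, - strand, NF-kappaB site): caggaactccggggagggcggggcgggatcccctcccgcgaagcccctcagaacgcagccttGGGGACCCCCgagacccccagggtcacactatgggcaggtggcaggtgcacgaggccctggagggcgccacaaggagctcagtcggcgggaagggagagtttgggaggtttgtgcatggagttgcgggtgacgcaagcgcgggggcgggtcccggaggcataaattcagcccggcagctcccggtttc

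The Dusp1 element lies 143 to 136 bases before the start. The Dusp5 boxes CCATATTTGG and CCTTATATGG lie at 82 to 73 and 72 to 63 and adjoin without overlap, and the Fosb match lies at 188 to 179. Over all 32851 promoters of the table, windows of the same length held the cAMP element in 1.55%, the AP-1 site in 6.75%, a CArG box in 1.47% and the NF-kappaB site in 7.25%. The windows of Adm, Ccn1, Adamts1, Atf3 and Klf6 held none of these letters.

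Dusp1, an early phosphatase that glucocorticoids also induce, ran from 63.4 to 213 FPKM in OS (median 161) and had 34.3, 115, 26.4, 29.3 and 29.4 in ON. ON 2 was above OS 5, and otherwise the codes did not overlap. The difference was 1.87 ± 0.38 (limma adjusted p = 0.0393). Dusp5, which acts on ERK in the nucleus, ran from 12.4 to 51.6 FPKM in OS (median 34.2) and had 7.67, 25.9, 7.76, 5.39 and 5.27 in ON. Both OS 5 and OS 6 were below ON 2, and the difference was 1.65 ± 0.34 (adjusted p = 0.0393).

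Spry2 and Spry4 and the receptor inhibitor Errfi1 were not called. Spry2 had 3.38 to 8.27 FPKM in OS and 2.49 to 5.04 in ON (0.87 ± 0.19, limma adjusted p = 0.0534). Spry4 had 2.96 to 6.31 FPKM in OS and 0.649 to 5.01 in ON (1.2 ± 0.28, adjusted p = 0.069). For both, 5 OS libraries were above every ON library. Errfi1 had 65.1 to 158 FPKM in OS and 29.3 to 126 in ON, with ON 2 above 3 of the OS libraries (1.09 ± 0.30, adjusted p = 0.128). Dusp6, a cytoplasmic ERK phosphatase, was close in the codes, with 26.2 to 43.0 FPKM in OS and 17.5 to 28.8 in ON (0.47 ± 0.17, adjusted p = 0.315).

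The list named for secreted and matricellular products, which reshape the matrix around cells or act on vessels, held the most called members of any list. It also includes the GTP-binding proteins Gem and Rhob, which are not secreted. Of 21 members 15 were tested, 6 were higher in OS and 9 were not called, with a median difference of 1.08 and 14 above 0. Of the 15, 3 had all OS above all ON libraries.

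Ccn1, a matricellular protein that serum and stretch induce, ran from 51.1 to 225 FPKM in OS (median 153) and had 2.73, 28.8, 5.01, 4.23 and 2.17 in ON. Every OS library exceeded ON 2, the highest of ON, and the saline libraries ran from 1.52 to 93.3. Its difference was the largest of those above 0 among all tested genes, at 4.31 ± 0.81 (limma adjusted p = 0.0289). Ccn2, its relative linked to fibrosis and TGF-beta, ran from 67.3 to 111 FPKM in OS (median 75.4) and had 43.6, 57.1, 37.2, 32.2 and 40.2 in ON, again with no overlap (0.94 ± 0.18, adjusted p = 0.0289).

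Adm encodes adrenomedullin, a peptide that widens vessels, on chromosome 7 (ENSMUSG00000030790, 110226868 to 110229027 as the deposited table gives them, on a build that the sources used here do not name). It ran from 2.73 to 9.88 FPKM in OS (median 6.72) and had 2.80, 2.72, 1.35, 1.51 and 1.50 in ON. ON 1 was slightly above OS 5, and the other 5 OS libraries were at least 5.98. The difference was 1.37 ± 0.20 (limma adjusted p = 0.00217). Adamts1, a secreted protease that cleaves proteoglycans, ran from 6.92 to 21.3 FPKM in OS (median 15.2) and had 4.45, 8.76, 3.01, 3.51 and 1.81 in ON (1.70 ± 0.33, adjusted p = 0.0304). Gem, a small GTP-binding protein that limits calcium channels, ran from 11.8 to 44.9 FPKM in OS (median 31.3) and had 8.46, 16.4, 5.35, 5.66 and 6.80 in ON (1.72 ± 0.33, adjusted p = 0.0304). In Adamts1 and Gem ON 2 was above OS 5 alone. Rhob, an early-response GTPase of the same list, was not called at 0.86 ± 0.28 (adjusted p = 0.237), with 68.5 to 182 FPKM in OS and 54.5 to 92.9 in ON.

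Among the other early transcription regulators 1 of 19 tested members was higher in OS. Their median difference was 0.98 and 18 lay above 0, while Egr4 did not reach the minimum. Klf6, a zinc-finger factor induced by injury, ran from 29.2 to 63.7 FPKM in OS (median 49.6) and had 23.4, 37.1, 24.1, 20.5 and 20.6 in ON (0.85 ± 0.18, limma adjusted p = 0.0393). OS 1 and OS 5 were below ON 2. Ier3, an early gene that modulates survival, was not called (1.83 ± 0.40, adjusted p = 0.0527), although its 10.1 to 38.7 FPKM in OS lay above all of its 3.55 to 9.53 in ON.

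The Nr4a family are orphan nuclear receptors that antigen receptor signals induce in lymphocytes. Nr4a1 had 16.2 to 161 FPKM in OS and 10.6 to 52.0 in ON (2.19 ± 0.55, limma adjusted p = 0.099). Nr4a2 had 1.67 to 7.20 FPKM in OS and 0.630 to 3.34 in ON (1.09 ± 0.25, adjusted p = 0.057). Nr4a3 had 2.97 to 15.1 FPKM in OS and 1.03 to 6.99 in ON (1.29 ± 0.31, adjusted p = 0.0731). In each of the 3, ON 2 was the highest ON library and OS 5 the lowest OS library. Egr1, a zinc-finger factor downstream of ERK, had 8.44 FPKM in OS 5, 45.9 to 78.9 in the other OS libraries and 6.45 to 15.6 in ON (2.10 ± 0.49, adjusted p = 0.0695). Bhlhe40, a repressor of activated lymphocytes and of the clock, had 12.3 to 34.7 FPKM in OS and 7.36 to 21.2 in ON (1.07 ± 0.24, adjusted p = 0.0534).

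The same pattern of a single low OS library held for Ier2, Zfp36 and Myc. Ier2, a short early gene, had 31.3 FPKM in OS 5, 110.4 to 209 in the other OS libraries and 36.4 to 70.2 in ON. Zfp36, which destabilises cytokine mRNA, had 24.4 FPKM in OS 5, 99.6 to 152 in the other OS libraries and 29.2 to 50.9 in ON. Myc, a driver of cell growth, had 30.8 FPKM in OS 5, 53.7 to 100.04 in the other OS libraries and 27.5 to 44.9 in ON. None of the 3 was called (limma adjusted p of 0.194, 0.245 and 0.112).

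**Figure D2:**
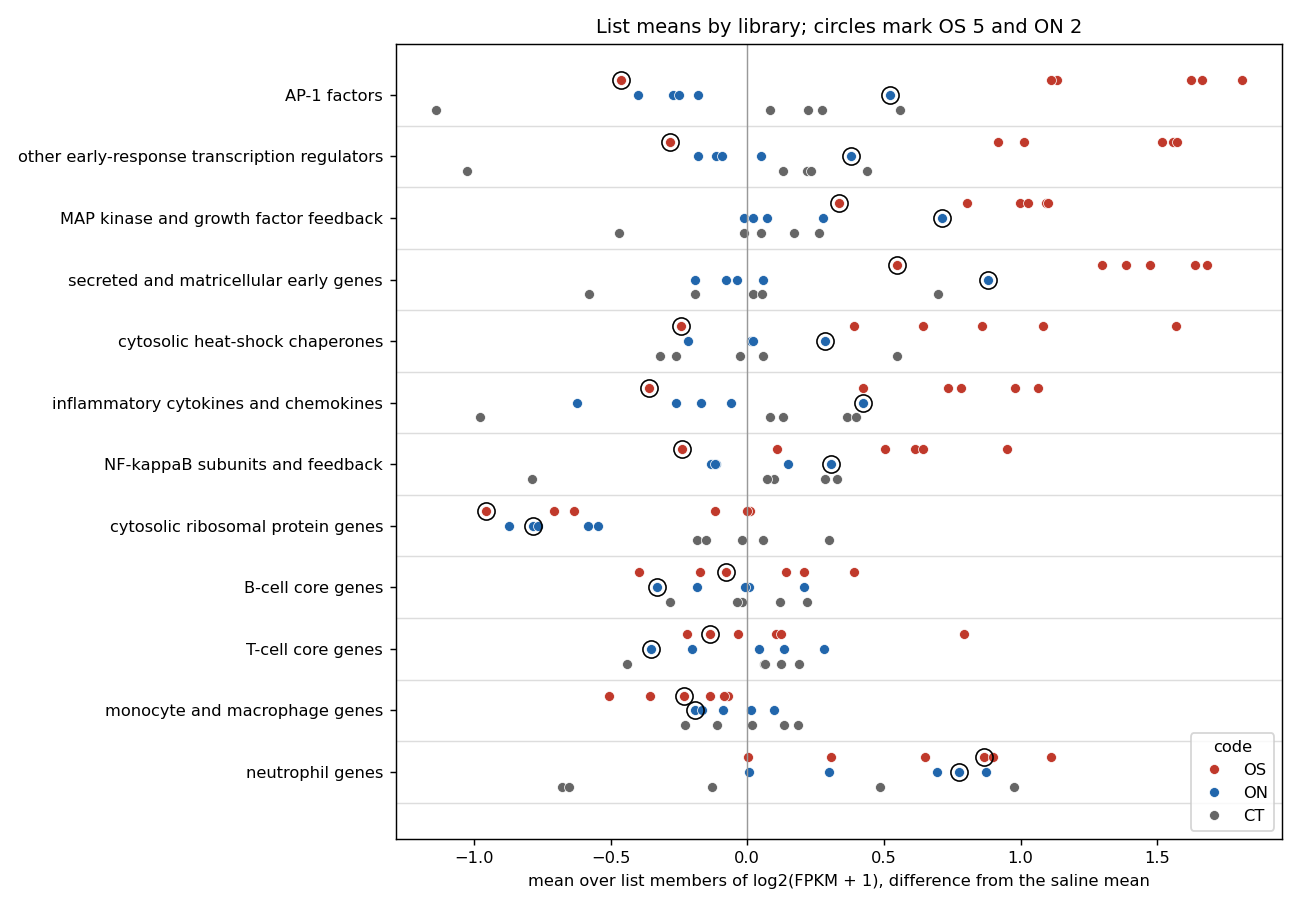
Mean over the tested members of 12 lists of log2(FPKM + 1), as the difference from the saline mean, for each OS, ON and saline library; circles mark OS 5 and ON 2. The OS libraries other than OS 5 sit at 1.11 to 1.81 for AP-1 factors while OS 5 sits at -0.46, and ON 2 at 0.52 is the highest ON library.

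Rnd3 showed the smallest p-value of the genes named. It is a protein that loosens the actin skeleton, on chromosome 2 (ENSMUSG00000017144, 51020450 to 51039123 in the same coordinates), and belonged to none of the lists. It ran from 8.03 to 10.95 FPKM in OS (median 9.30) and had 4.15, 6.001, 6.05, 4.19 and 4.11 in ON. OS and ON did not overlap. Saline ran from 5.29 to 7.11 FPKM, below every OS library. The ON values of 6.001 and 6.05 lay within that range, and the rest of ON lay below it. The difference was 0.84 ± 0.11 (limma adjusted p = 0.00164).

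Zfand5, a stress-induced activator of the proteasome, and Osgin2, an oxidative stress relative, also separated fully. Zfand5 ran from 17.1 to 26.5 FPKM in OS (median 22.6) and had 11.1, 16.1, 12.2, 12.5 and 12.2 in ON (0.72 ± 0.12, limma adjusted p = 0.0133). Osgin2 ran from 3.78 to 5.07 FPKM in OS (median 4.37) and had 2.88, 3.60, 3.12, 2.95 and 2.84 in ON (0.40 ± 0.08, adjusted p = 0.0496).

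Plk2, an early polo-like kinase, ran from 6.16 to 12.6 FPKM in OS and had 3.43, 7.42, 3.61, 3.00 and 2.13 in ON (1.21 ± 0.22, limma adjusted p = 0.0276). Rgs16, which shortens G-protein signals, ran from 0.704 to 3.14 FPKM in OS and had 0.785, 0.461, 0.440, 0.734 and 0.572 in ON (0.93 ± 0.17, adjusted p = 0.0289). For both, OS 5 lay within the ON range and the other OS libraries above it. Every ON value of Rgs16 was under the minimum of 1 FPKM. Among the 11 libraries only OS values reached that minimum, so its passing the filter is not independent of its difference. Vmp1, needed to form autophagosomes, had 28.3 to 43.1 FPKM in OS and 38.1 in ON 2, but 16.1 to 20.4 in the other ON libraries (0.77 ± 0.16, adjusted p = 0.0393). H3f3b, 1 of 2 genes for histone H3.3, had 159.9 to 324 FPKM in OS and 122 to 176 in ON (0.76 ± 0.16, adjusted p = 0.0417). Reads of H3f3b may be shared with processed copies of the gene, depending on how the authors counted them.

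Among lymphocyte regulators, Irf4 and Prdm1 were higher in OS. Irf4, a factor that antigen receptors induce in B and T cells, lies on chromosome 13 (ENSMUSG00000021356, 30933209 to 30950959). It ran from 22.8 to 39.1 FPKM in OS (median 34.1) and had 20.7, 20.4, 17.7, 15.6 and 15.9 in ON. All OS libraries were above all ON libraries, and the difference was 0.76 ± 0.13 (limma adjusted p = 0.0202). Prdm1, which drives B cells to antibody secretion and is also made in activated T cells, ran from 5.41 to 8.17 FPKM in OS and had 4.04, 6.01, 3.78, 3.11 and 3.57 in ON (0.67 ± 0.13, adjusted p = 0.0303). OS 6, and not OS 5, was the lowest OS library for Prdm1, the only one below ON 2.

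Both genes are on the plasma cell list, and its other 15 tested members were not called. The median of its 17 differences was -0.12, with 12 below 0. It was -0.21 without OS 5, -0.20 without OS 6 and -0.19 without ON 1, and 0.01 without ON 2 and ON 3 together. Igha, the constant region of IgA, had 60.7 to 103 FPKM in OS and 94.3 to 127 in ON (-0.43 ± 0.25, limma adjusted p = 0.574). In bulk tissue, fewer cells of a type and less RNA per cell cannot be told apart.

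Of the regulatory T-cell and co-receptor genes 1 of 20 tested was called. Ctla4, the inhibitory receptor that competes with CD28, lies on chromosome 1 (ENSMUSG00000026011, 60926159 to 60954991). It ran from 9.01 to 35.1 FPKM in OS (median 15.5) and had 5.20, 10.1, 3.25, 1.94 and 2.14 in ON. ON 2 was above OS 5, and the difference was 1.83 ± 0.38 (limma adjusted p = 0.0417). The list's median difference was 0.20, with 16 of 20 above 0, and it was 0.13 without OS 4. Gpr171, a receptor that restrains T cells, had 25.5 to 84.2 FPKM in OS and 12.7 to 40.3 in ON (adjusted p = 0.077). Icos, a co-stimulator, had 7.37 to 26.1 FPKM in OS and 4.52 to 11.6 in ON (adjusted p = 0.157), and Tnfrsf4, the OX40 co-stimulator, had 4.35 to 24.98 and 3.46 to 5.11 (adjusted p = 0.22). OS 4 was the highest OS library for Ctla4, Gpr171, Icos and Tnfrsf4, and also had the highest mean of the 20 T-cell core genes among the 11 libraries, 0.79 above saline on the log2 scale. The part of T-cell content in these values was not tested. Cd160, found on NK and memory T cells, had the lowest difference of the list at -0.35 ± 0.12 (adjusted p = 0.24).

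T-cell activation genes included 11 tested members, none called, with a median of 0.11 that was 0.23 without ON 3. Cd69, an early surface sign of activation, had 6.33 to 17.5 FPKM in OS and 3.40 to 5.96 in ON (0.98 ± 0.23, limma adjusted p = 0.0731). Gzmb, a granule protease, had 4.63 to 8.21 FPKM in OS and 2.58 to 4.57 in ON (0.71 ± 0.23, adjusted p = 0.226). Both had all OS above all ON libraries without being called. Gzmb is also on the cytotoxic and NK cell list, where its difference was the highest. Of the 13 tested members of that list none was called and 8 lay below 0. Its median was -0.08, and ran from -0.13 to -0.01 with 1 library left out. The lineage lists lay near the median of all genes: 20 T-cell core genes at 0.05 and 15 B-cell core genes at 0.07, with no member called. Both medians lay below 0 without ON 2, as did the T-cell median without OS 4 and the B-cell median without OS 2. Ccr7, which guides T cells and dendritic cells into T zones, led the T-cell list at 1.28 ± 0.33 (adjusted p = 0.103), with 45.9 to 196 FPKM in OS and 34.4 to 71.8 in ON.

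Heat-shock chaperones, which refold proteins after stress, had no called member among 15, a median of 0.28 and 13 above 0. Without OS 5 the median was 0.51 and 2 members were higher in OS, and without OS 3 it was 0.15. The inducible Hsp70 pair stood far above the rest. Hspa1a ran from 1.84 to 183 FPKM in OS (median 56.5) and had 0.660, 12.7, 1.27, 0.930 and 1.66 in ON (3.68 ± 0.99, limma adjusted p = 0.118). Hspa1b ran from 5.52 to 424 FPKM in OS (median 115) and had 3.25, 39.1, 4.45, 4.07 and 5.17 in ON (3.48 ± 1.05, adjusted p = 0.195). In both, ON 2 was above OS 5 and below every other OS library. Their coding sequences are nearly identical, so the split of reads between them is uncertain. Dnajb4, a co-chaperone, separated fully without being called, with 9.38 to 17.0 FPKM in OS and 5.90 to 9.29 in ON (adjusted p = 0.202).

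Inflammatory cytokines and chemokines had no called member among 21, a median of 0.48 and 18 above 0. Without OS 5 the median was 0.70 with 6 members higher in OS, and without ON 2 it was 0.62 with 6 higher. It was 0.94 with 8 higher without OS 5, ON 2 and ON 3, while no member was called without ON 3 alone. Cxcl2, which draws neutrophils, had 1.48 FPKM in OS 5, 8.37 to 46.9 in the other OS libraries, 30.9 in ON 2 and at most 1.16 in the other ON libraries (2.85 ± 0.85, limma adjusted p = 0.181). Il10, an anti-inflammatory cytokine, had 0.853 FPKM in OS 5, 2.81 to 23.0 in the other OS libraries and 7.89 in ON 2, against 0.185 to 1.35 in the rest of ON (2.01 ± 0.53, adjusted p = 0.116). Il1b, the pyrogenic cytokine, was highest of all 11 libraries in ON 2 at 93.2 FPKM (adjusted p = 0.321). Ccl3 and Ccl4, chemokines of activated macrophages and lymphocytes, had 3.53 to 21.1 and 4.19 to 29.8 FPKM in OS. In ON they had 1.88 to 6.09 and 1.48 to 6.70, with ON 3 the highest (adjusted p of 0.112 and 0.122). Il12b, a subunit of IL-12 and IL-23, had 1.26 to 3.06 FPKM in OS and 0.344 to 2.01 in ON (adjusted p = 0.0534).

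NF-kappaB subunits and feedback genes likewise had no call among 17, with a median of 0.25 and 14 above 0. The median was 0.38 with 3 members higher without OS 5, and 0.08 without OS 4. Tnfaip3, the A20 brake on NF-kappaB, had 20.8 to 70.4 FPKM in OS and 10.03 to 45.0 in ON (1.43 ± 0.33, limma adjusted p = 0.0615). Cd83, a surface protein of activated B and dendritic cells, had 58.5 to 291 FPKM in OS and 31.5 to 166 in ON (1.40 ± 0.38, adjusted p = 0.122). Nfkbia, the inhibitor of NF-kappaB, had 101 to 217 FPKM in OS and 81.8 to 136 in ON (adjusted p = 0.332).

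**Figure D3:**
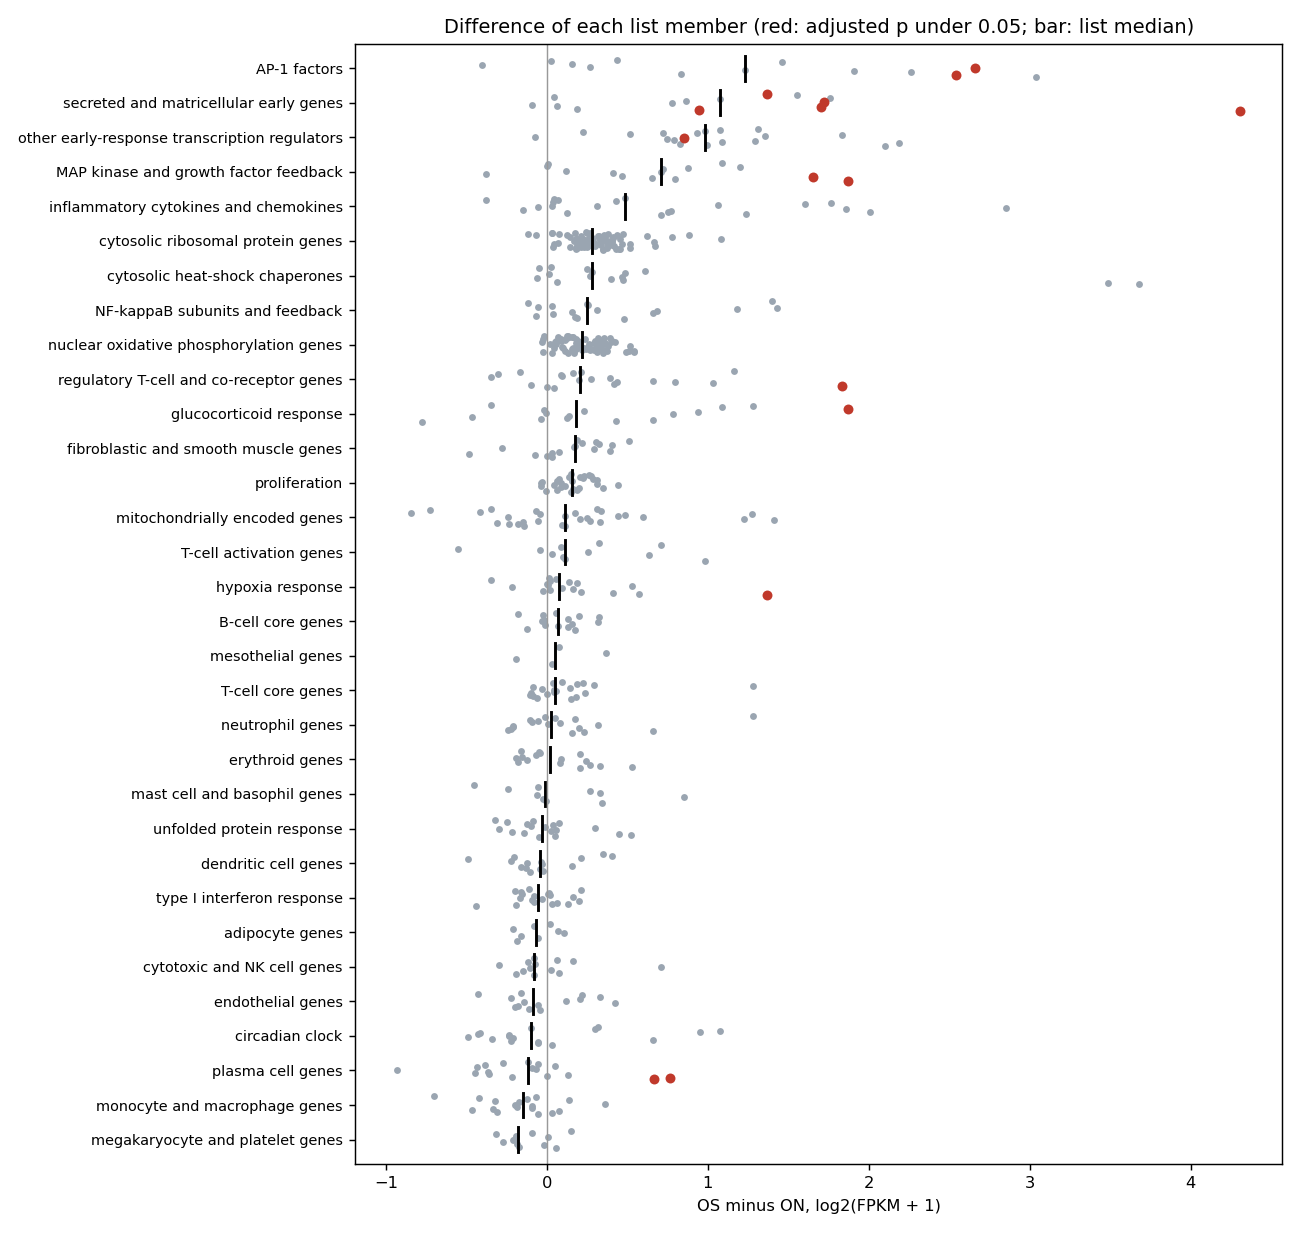
OS minus ON difference of log2(FPKM + 1) for each tested member of the lists without those of the pancreas, 1 row per list, ordered by the list median (black bar); red points are called members. The 4 early-response lists have the highest medians, from 0.71 to 1.23, and hold 11 of the called genes. Of these 11, 10 are drawn as points, since 1 gene is not reported here.

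Only Exoc8 and Slc35c1 were lower in OS. Exoc8, a subunit of the exocyst that tethers vesicles, ran from 3.67 to 6.72 FPKM in OS (median 4.43) and had 6.83, 6.66, 7.15, 6.84 and 7.98 in ON (-0.50 ± 0.10, limma adjusted p = 0.0393). Slc35c1, which carries GDP-fucose into the Golgi, ran from 8.40 to 10.3 FPKM in OS (median 9.29) and had 13.9, 10.2, 14.3, 13.8 and 14.7 in ON (-0.47 ± 0.10, adjusted p = 0.0393). Each overlapped by 1 library, OS 5 for Exoc8 and ON 2 for Slc35c1.

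Glucocorticoid response genes split in direction. Of 16 tested, Dusp1 was higher in OS and 15 were not called, with 10 above 0 and a median of 0.18. That median was 0.48 without ON 2 and 0.32 without OS 5, but 0.02 without ON 4 and 0.04 without ON 5. ON 2 had the highest mean of the list among the 11 libraries, 1.24 above saline. Fkbp5, a co-chaperone of the glucocorticoid receptor, ran from 4.09 to 7.74 FPKM in OS and had 16.8, 12.02, 12.5, 8.38 and 11.6 in ON. It was below every ON library in all OS libraries but was not called (-0.77 ± 0.22, limma adjusted p = 0.152). Per1, a clock gene that glucocorticoids and early signals induce, had 16.2 to 60.7 FPKM in OS and 15.4 to 39.5 in ON (adjusted p = 0.407).

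Clock genes had no call among 17, with 11 below 0 and a median of -0.10, which was -0.03 without ON 2 and -0.05 without OS 3. Nr1d1, the clock repressor REV-ERB alpha, had 2.71 to 6.06 FPKM in OS and 4.67 to 8.05 in ON (-0.49 ± 0.17, limma adjusted p = 0.281). Tef, an output factor of the clock, had 6.07 to 9.74 and 9.16 to 13.8 (adjusted p = 0.197), and Per2, a core repressor, 2.24 to 3.38 and 3.26 to 4.58 (adjusted p = 0.246). Monocyte and macrophage genes had no call among 18, with 14 below 0 and a median of -0.15. Cd163, the haemoglobin scavenger of red pulp macrophages, had 6.89 to 21.04 FPKM in OS and 16.3 to 27.0 in ON (adjusted p = 0.267), and Slc40a1, the iron exporter, 43.2 to 74.7 and 73.0 to 91.5 (adjusted p = 0.414).

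Genes of the ribosome and of the respiratory chain, both abundant and mostly short, gave no single call. Of 81 tested ribosomal protein genes none was called, 79 lay above 0 and the median was 0.28. Of 77 nuclear oxidative phosphorylation genes none was called, 73 lay above 0 and the median was 0.21, which became 0.36 without OS 5 and 0.12 without OS 3. Ribosomal protein genes took 3.73% to 6.41% of reads in OS and 2.72% to 4.38% in ON (two-sided exact permutation test over all assignments of the libraries, p = 0.126, adjusted to 0.584 over 6 library measures). OS 5 had the lowest share of OS. Over all genes split into 4 equal sets by gene length, the median difference was 0.07 in the shortest, then 0.05 and 0.01, and -0.04 in the longest. The part of gene length and of these shares in the early-response results was not tested.

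Pancreas genes, from the organ beside the spleen tail, took 30.2% of reads in ON 2 and 4.62% in ON 3, and at most 0.00347% in the other 9 libraries. Of 26 acinar genes 4 passed the filter, with a median of -4.10 that became 0.09 without ON 2 and ON 3, and none of 11 islet genes passed. The summed acinar level was 8.95 to 19.7 FPKM in OS. Neutrophil, erythroid, endothelial and fibroblastic lists had no called member, and all 4 list ranges overlapped between the codes. OS 5 was the lowest of the 11 libraries for the endothelial and the fibroblastic lists. The part of these in the early-response results was not tested. The 29 genes were all called without ON 2, whereas without ON 3 only 3 genes were called and 2 of the 11 early-response calls were left. Without both of them 97 genes were higher and 22 lower. B-cell core genes, which mark the main lymphocytes of the spleen, summed to 2498 to 3760 FPKM in OS and 2375 to 3329 in ON. Depth was similar, at 14302533 to 16841269 reads in OS and 14581525 to 18113989 in ON, and 1 read on 1 kilobase was worth 0.0520 to 0.0899 FPKM, which sets the counting precision of low values only. Saline library CT 4, which shares the estimate of spread, had 6.62% mitochondrial reads.

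The number of calls turned on single libraries. Without OS 5 there were 177 higher (1.13%) and 83 lower genes (0.530%), and without ON 2 there were 157 (1.00%) and 59 (0.376%). Without ON 3 only 3 higher genes (0.0191%) and no lower gene were left, and 3 to 5 without OS 2, OS 3, OS 4, ON 1, ON 4 or ON 5. Without ON 2 and ON 3 there were 97 (0.619%) and 22 (0.140%). Without OS 5, ON 2 and ON 3 together there were 184 higher (1.17%) and 73 lower (0.466%). All 29 genes were called again without OS 5, without ON 2, and without those 3 libraries, while 3, Rnd3 and Adm among them, were called in each of the 11 fits that left out 1 library.

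Early-response genes were among those gained. Of the 62 tested members of the 4 lists, 40 were higher without OS 5, 29 without ON 2 and 37 without the 3 libraries, against 11 with all libraries and 2 without ON 3. Fos had a difference of 3.46 without OS 5 (limma adjusted p = 0.00737) and 3.58 without ON 2 (adjusted p = 0.00487). Jun had 2.69 (adjusted p = 0.00241) and 2.55 (adjusted p = 0.0104), and Hspa1a 4.44 (adjusted p = 0.0116) and 4.22 (adjusted p = 0.0369). Ctla4 had 1.78 without ON 3, where its adjusted p was 0.127. A limma fit to the OS and ON libraries alone called no gene, with a smallest adjusted p of 0.0666 and 1371 unadjusted p-values under 0.05. The voom fit, which called 40, used all 26 libraries.

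**Figure D4:**
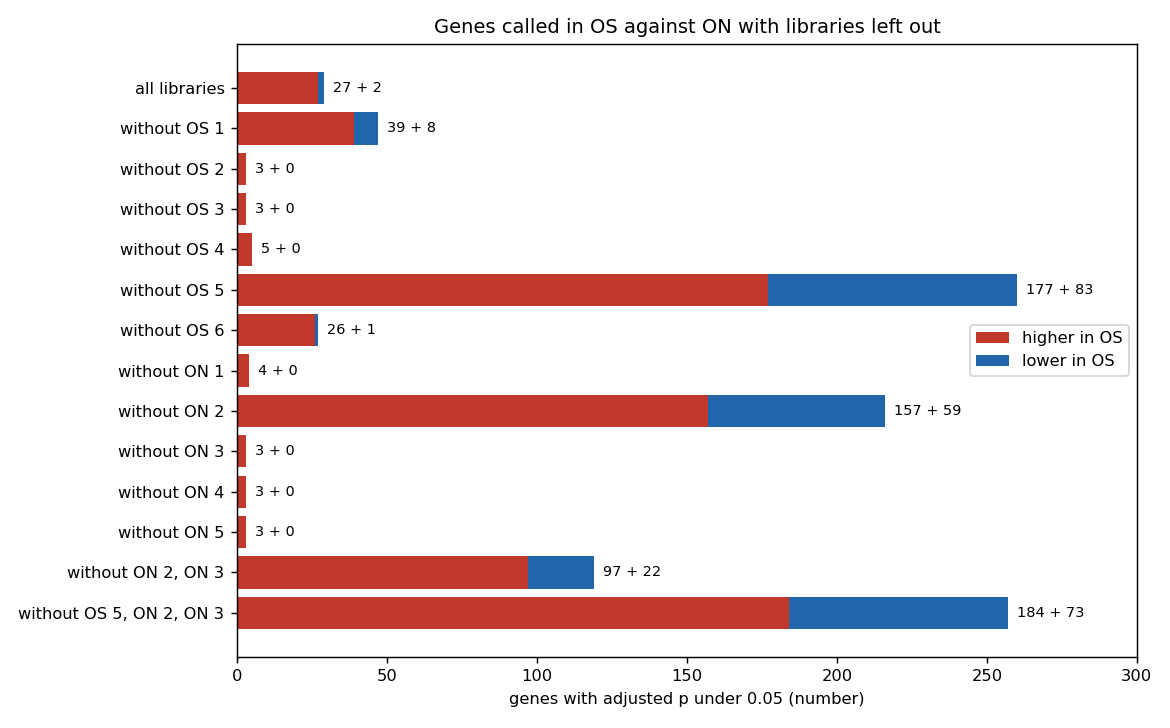
Number of genes higher (red) and lower (blue) in OS at an adjusted p under 0.05 with all libraries, without each OS or ON library, and without ON 2 and ON 3 or those and OS 5. Counts reach 177 and 83 without OS 5 and 157 and 59 without ON 2, and drop to 3 and 0 without OS 2, OS 3, ON 3, ON 4 or ON 5.

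The pair of codes that share OVA and the mimic was compared under the same fit. MM against MN had 27 genes called (0.172%), 9 of them higher in MM (0.0574%). Whether the OS to ON difference and the MM to MN difference are alike was not tested. For MAP kinase feedback the list mean, relative to saline, ran from 0.54 to 0.96 in MM and from -0.06 to 0.30 in MN. For secreted and matricellular genes it ran from 0.74 to 1.38 in MM and from -0.16 to 0.49 in MN. In neither list did the codes overlap. They overlapped for AP-1 factors, with 0.12 to 1.44 in MM and -0.19 to 0.36 in MN, and for other early transcription regulators, with 0.30 to 1.42 and -0.13 to 0.31. In OS and ON all 4 lists overlapped, the AP-1 list running from -0.46 to 1.81 and from -0.40 to 0.52.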

How the data were processed

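RNA of mouse spleen was poly(A)-selected and sequenced, per the labels' protocols, and the authors deposited FPKM per gene. Tools in the submitters' processing notes are featureCounts (1.5.0-p3), HISAT2 (2.0.5), edgeR (3.24.3), StringTie (1.3.3b), CASAVA and DESeq2 (1.20.0); the notes as used here give them no role. Times gene length, every deposited FPKM was a whole number of steps of its library (tolerance 0.05), and these numbers were taken as reads. No libraries held identical values.

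Values were log2(FPKM + 1), and limma 3.58.1 in R 4.3.3 fitted 1 mean per code with a variance trend, after a test on simulated data. FPKM are not counts, so voom on the recovered reads, scaled as deposited, was an alternative. Others were a pseudocount of 0.1, other filters, scalings and weights, the 11 libraries alone, and libraries left out. Lists (34, with 539 of 541 symbols matched) are described by counts and medians. Named genes were called genes with an established symbol, and members of lists by smallest p or highest FPKM. Of the genes these rules name, 1 is not reported here. Members and lists were chosen with earlier results of these data known. Promoters are from RefSeq (GRCm38.p6).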

Additional observations from a re-analysis of the deposited data

Results flagged for a closer look

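Of 214 groups of OS or ON libraries checked by Dixon's ratio of gap to range, 38 had a library far from the others of its code. For a single group chance gives about 1 in 20. The groups reuse the same 11 libraries over related genes, so they are not independent and the count is no test. ON 2 was that library in 19 and OS 5 in 14.

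OS 5 was far below the other OS libraries for Adamts1 (6.92 FPKM), Dusp1 (63.4), Junb (19.1), Jund (5.93), Egr1 (8.44), Nr4a1 (16.2), Ier2 (31.3), Zfp36 (24.4) and Spry4 (2.96). Its list means, as log2 differences from saline, were far below those of the other OS libraries for AP-1 factors (-0.46), other early transcription regulators (-0.28), secreted and matricellular genes (0.55), endothelial genes (-0.28) and fibroblastic and smooth muscle genes (-0.42).

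ON 2 was far above the other ON libraries for Ccn1 (28.8 FPKM), Atf3 (8.84), Dusp1 (114.8), Dusp5 (25.9), Fosb (3.08), Vmp1 (38.1), Klf6 (37.1), Jun (25.2), Nr4a1 (52.0), Nr4a2 (3.34), Ier2 (70.2), Spry2 (5.04), Hspa1a (12.7), Hspa1b (39.1) and Cxcl2 (30.9), and far below them for Slc35c1 (10.2). It was also far above them in its list means of AP-1 factors (0.52) and of secreted and matricellular genes (0.88), and in its share of reads on pancreas genes (30.2%).

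In 5 more groups another library stood apart. ON 3 was high for Ccl3 (6.09 FPKM). OS 4 was high for Icos (26.1 FPKM) and for the mean of the T-cell core genes (0.79), and low for Slc40a1 (43.2 FPKM). OS 6 was low for Fkbp5 (4.09 FPKM).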

How the results depend on the processing

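No named gene changed direction under any alternative run. The counts of genes higher and lower in OS, 27 and 2 with all libraries, were 15 higher at a pseudocount of 0.1, 6 and 0 with no filter on low values, 68 and 0 with the plain total of reads as scale, 350 and 214 with library weights, and 0 and 0 from the OS and ON libraries alone. The plain total put the median of all genes at 0.06. Quantile normalization gave 4 lower genes and voom 5. Leaving out each OS or ON library in turn gave 3 to 177 higher and 0 to 83 lower, and 24 to 39 for MM against MN, where these libraries enter only the estimate of spread. No MM or MN library was left out singly. Without ON 2 and ON 3 there were 97 and 22, without OS 5, ON 2 and ON 3 184 and 73, and without ON 2, ON 3 and MM 2 103 and 20. Leaving out CT 4, an alternative chosen after seeing the data, gave 57 and 10. For MM against MN, 27 genes became 7 with no filter, 474 with library weights, 64 without OS 5, ON 2 and ON 3, and 54 without CT 4. The cause of these changes was not tested. Of the 22 called genes named, 15 kept their call at a pseudocount of 0.1, 4 with no filter, 2 with the block, and at least 20 under each other scaling, voom and library weights. The mean pancreatic share of reads, lower in OS, was higher by 4.239e-05 percentage points without ON 2 and ON 3 and by 0.0001928 without OS 5 as well.

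With the replicate number as a block, 3 genes were higher and 0 lower. Same-numbered OS and ON libraries had correlations of their deviations of 0.15, -0.15, -0.05, 0.03 and -0.22, and only number 1 correlated best with its own. These values cannot show whether same-numbered libraries shared a batch, and the labels name none.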
